A study of Mus musculus with 9 samples.

Results

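The genes described here are Nfe2l2, which encodes the transcription factor NRF2, Keap1, which encodes its inhibitor, and 8 antioxidant genes that NRF2 is known to drive (Nqo1, Gclm, Gclc, Txnrd1, Srxn1, Slc7a11, Prdx1 and Gsr). They were taken by symbol from the Ensembl identifiers of the expression table, and all 10 were found among its 53379 genes and passed the filter on low values that left 12824 genes to test. RNA-seq had been done on Mϕs grown from the BM of wild-type C57BL/6 mice. Every culture received CSF-1 (MCSF) at 10 ng/ml for 3 days. Over the following 4 days, control Mϕs received 10 ng/ml MCSF alone, IL-4 Mϕs the same MCSF with 10 ng/ml IL-4, and IL-6 Mϕs the same MCSF with 100 ng/ml IL-6, with 3 libraries in each group. These doses and times are those of the deposited labels. The study's methods differ from them in the IL-4 dose, and its figure legends in the cytokine doses and the time. Cells were not sorted, so a library can hold other BM cells.

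NRF2 is made continuously and is normally held by KEAP1, which hands it to a ubiquitin ligase for destruction. Oxidants and electrophiles modify KEAP1, and NRF2 then accumulates, pairs with a small Maf protein and binds antioxidant response elements in the promoters of its targets. Its activity is therefore set largely at the protein level, which mRNA values do not measure. The targets fall into arms: cystine import and glutathione synthesis (Slc7a11, Gclc, Gclm), reduction of oxidised glutathione (Gsr), the thioredoxin and peroxiredoxin system (Txnrd1, Prdx1, Srxn1), and quinone reduction (Nqo1). In Mϕs these systems buffer the oxidants that the cells themselves make.

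The library totals implied by the normalised values were 29988160 to 39909571 fragments. All 8 Mϕ markers on the list (among them Csf1r, Adgre1, Cd68 and Lyz2) were above 0 in every library, with a summed level of 16607 to 18883 FPKM (fragments normalised to transcript length and library size) in control, 6115 to 7100 in IL-4 and 20165 to 21266 in IL-6 Mϕs. All 12 granulocyte markers (such as Elane, Mpo and S100a8) were above 0 in every library too, at 5011 to 8905 FPKM in control, 2236 to 4164 in IL-4 and 8192 to 11400 in IL-6 Mϕs. In bulk libraries, fewer cells of a type and less RNA per cell cannot be told apart. Transcripts of intestinal secretory cells (13 genes) split the libraries: their summed level was 27.3 to 40.5 FPKM in the 3 control libraries and IL-4 #1, and 0.0139 to 0.175 FPKM in IL-4 #2, IL-4 #3 and the 3 IL-6 libraries, where 10 to 12 of the 13 were at 0. Skeletal muscle markers split the same libraries the other way, with a summed level of 2.75 to 8.37 FPKM in the first set and 9.73 to 16.4 FPKM in the second. No control library belonged to the low set and no IL-6 library to the high set, so IL-6 treatment and this split cannot be told apart. Each comparison was therefore also fitted with the set as a term, whose size rests on IL-4 #1 against IL-4 #2 and #3 alone. Library IL-4 #3 stood apart as well, with an FPKM sum of 441581 against 322853 to 371690 in the other libraries and higher values for short genes. The treatments left their known marks: Socs3, the feedback inhibitor that IL-6 induces, was 35.4 times the control mean in IL-6 Mϕs (limma adjusted p = 3.02e-05), and Arg1, the arginase that IL-4 induces, was 1809 times the control mean in IL-4 Mϕs (limma adjusted p = 1.96e-06).

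Promoter windows of RefSeq (build GRCm38.p6), running from 250 bases before to 50 after each gene's start, were found for 8 of the 10 genes, with 10 windows in all because Txnrd1 has 3. Gclc and Gsr had no entry. Slc7a11, the gene with the largest rise in this group, is shown over the whole stretch before its start (chr3:50443614-50443863, minus strand), with capitals marking its matches to TGATGCAA, a C/EBP-ATF response element, and to TTCNNNGAA, a STAT site.
Slc7a11: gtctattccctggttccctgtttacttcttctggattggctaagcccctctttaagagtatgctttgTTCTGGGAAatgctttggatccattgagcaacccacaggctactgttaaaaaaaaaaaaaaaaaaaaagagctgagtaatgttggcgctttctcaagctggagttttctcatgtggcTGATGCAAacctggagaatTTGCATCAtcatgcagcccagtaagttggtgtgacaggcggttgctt
The element TGATGCAA lay on both strands of this promoter, 66 and 47 bases before the start, and 0.895% of all 32851 promoter windows held it at least once. The STAT site began 183 bases before the start, and 8.3% of the windows held one. Both motifs were chosen with the sequence in view.

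The next stretches show where the core of the antioxidant response element, TGACNNNGC or its form TGAGNNNGC, lay before the start of other members, with the core in capitals. They come from Srxn1 (chr2:152105354-152105493, plus strand), Prdx1 (chr4:116685446-116685494, plus strand), Gclm (chr3:122245403-122245451, plus strand), Nfe2l2 (chr2:75704875-75704913, minus strand, inside an exon of the antisense RNA E030042O20Rik) and a start of Txnrd1 (chr10:82859094-82859142, plus strand).
Srxn1: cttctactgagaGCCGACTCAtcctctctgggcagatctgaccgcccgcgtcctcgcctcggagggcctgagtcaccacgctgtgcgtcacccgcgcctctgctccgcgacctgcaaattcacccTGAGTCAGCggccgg
Prdx1: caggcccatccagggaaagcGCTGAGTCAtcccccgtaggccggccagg
Gclm: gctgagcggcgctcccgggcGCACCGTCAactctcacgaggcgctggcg
Nfe2l2: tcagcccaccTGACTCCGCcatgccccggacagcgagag
Txnrd1: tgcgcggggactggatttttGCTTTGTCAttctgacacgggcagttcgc
Searched on both strands of the whole windows, TGACNNNGC was present in 5 of the 8 genes and in 12.4% of all windows, and TGAGNNNGC in 3 of the 8 (Srxn1, Slc7a11 and Prdx1) and in 17.6% of all windows. The AP-1 and NF-E2 site TGAGTCA, which overlaps the core in Srxn1 and Prdx1, was in these 2 genes and in 5.2% of windows. The longer-spaced STAT site TTCNNNNGAA was in 0 of the 8 genes and 6.95% of windows. The windows of Nqo1 and Keap1 held none of the 6 motifs. A gene counted when any of its windows matched, and Txnrd1 has 3 windows, while the percentages are of single windows. A match describes the letters in the window and not binding.

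**Figure D1:**
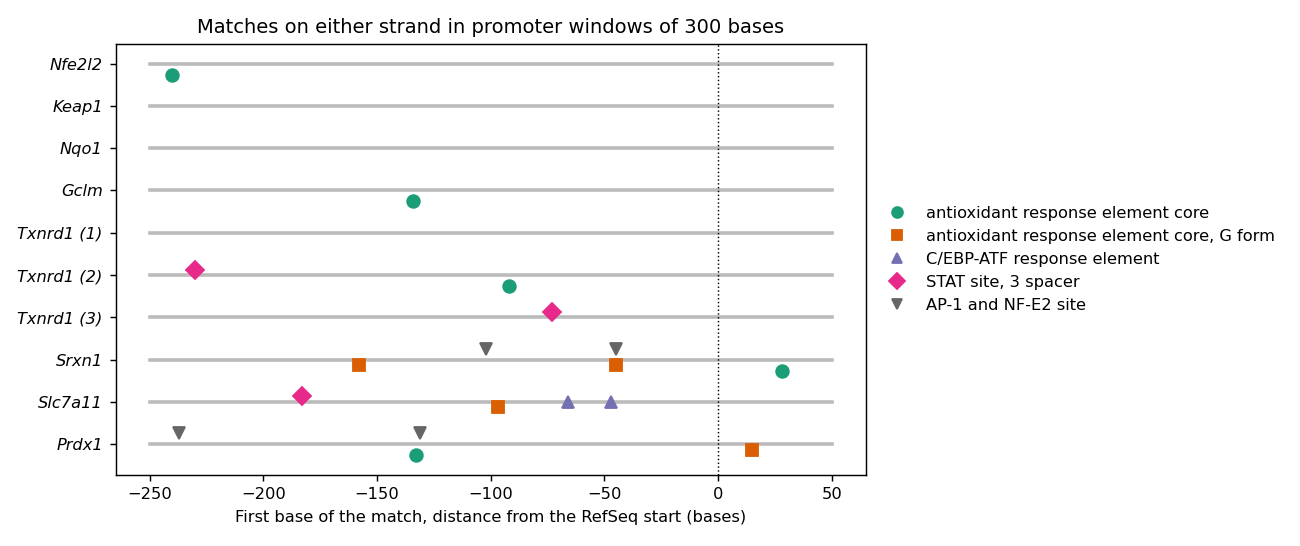
Positions of motif matches on either strand in the 10 promoter windows of 8 genes, as the distance in bases of the match's first base from the RefSeq start (dotted line), with a marker shape for each motif. The pair of C/EBP-ATF elements lies 66 and 47 bases before the Slc7a11 start, and the windows of Keap1 and Nqo1 carry no marker.

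The 10 genes did not move as a block under either cytokine. A gene was called when its limma adjusted p was under 0.05 and its log2 fold change, on the scale of log2(FPKM + 0.1), was at least 1 in size. In IL-4 against control Mϕs, 2 of the 10 genes were called, Slc7a11 higher and Gsr lower, where 13.9% of all tested genes were called, 5.02% higher and 8.89% lower. In IL-6 against control Mϕs, 1 of the 10 was called, Slc7a11 higher, against 5.38% of all genes and 3.49% called higher (1.89% were called lower). Between the cytokines, 4 of the 10 were called (Nfe2l2, Gclm, Slc7a11 and Gsr), each higher with IL-6, where 20.4% of all genes were called, 13.6% higher and 6.82% lower. The median log2 fold change of the 10 was −0.21 with IL-4 and 0.41 with IL-6, beside −0.20 and −0.00 over all tested genes, and it was 0.41 between the cytokines, beside 0.22. On adjusted p alone, 4 of the 10 passed in IL-4 against control (24.8% of all genes), 2 in IL-6 against control (8.40%) and 4 between the cytokines (34.1%). Once the set entered the fit, the limma calls numbered 0 (8.66% of all genes), 0 (1.46%) and 4 (25.5%), with 3, 3 and 5 genes at an unadjusted p under 0.05, and with the replicate block 2 (13.9%), 1 (5.12%) and 4 (21.3%). The comparisons with control share the same control libraries, so they are not independent.

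The ranges of the 3 libraries separated more often than the test called genes. With IL-4, 2 genes lay wholly above control (Nqo1 and Slc7a11) and 4 wholly below it (Nfe2l2, Keap1, Gclm and Gsr), where 40.3% of all tested genes had ranges that did not overlap, 13.5% above and 26.8% below. With IL-6, 6 lay wholly above control (Nfe2l2, Nqo1, Gclm, Txnrd1, Slc7a11 and Gsr) and Keap1 wholly below it, against 43.2% of all genes, 20.0% above and 23.2% below. Between the cytokines 5 were wholly higher with IL-6 (Nfe2l2, Gclm, Txnrd1, Slc7a11 and Gsr) and Prdx1 wholly lower, against 56.9% of all genes, 36.3% higher and 20.6% lower. An exact permutation test of 3 libraries against 3 cannot go below p = 0.1, which each separated gene reached.

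**Figure D2:**
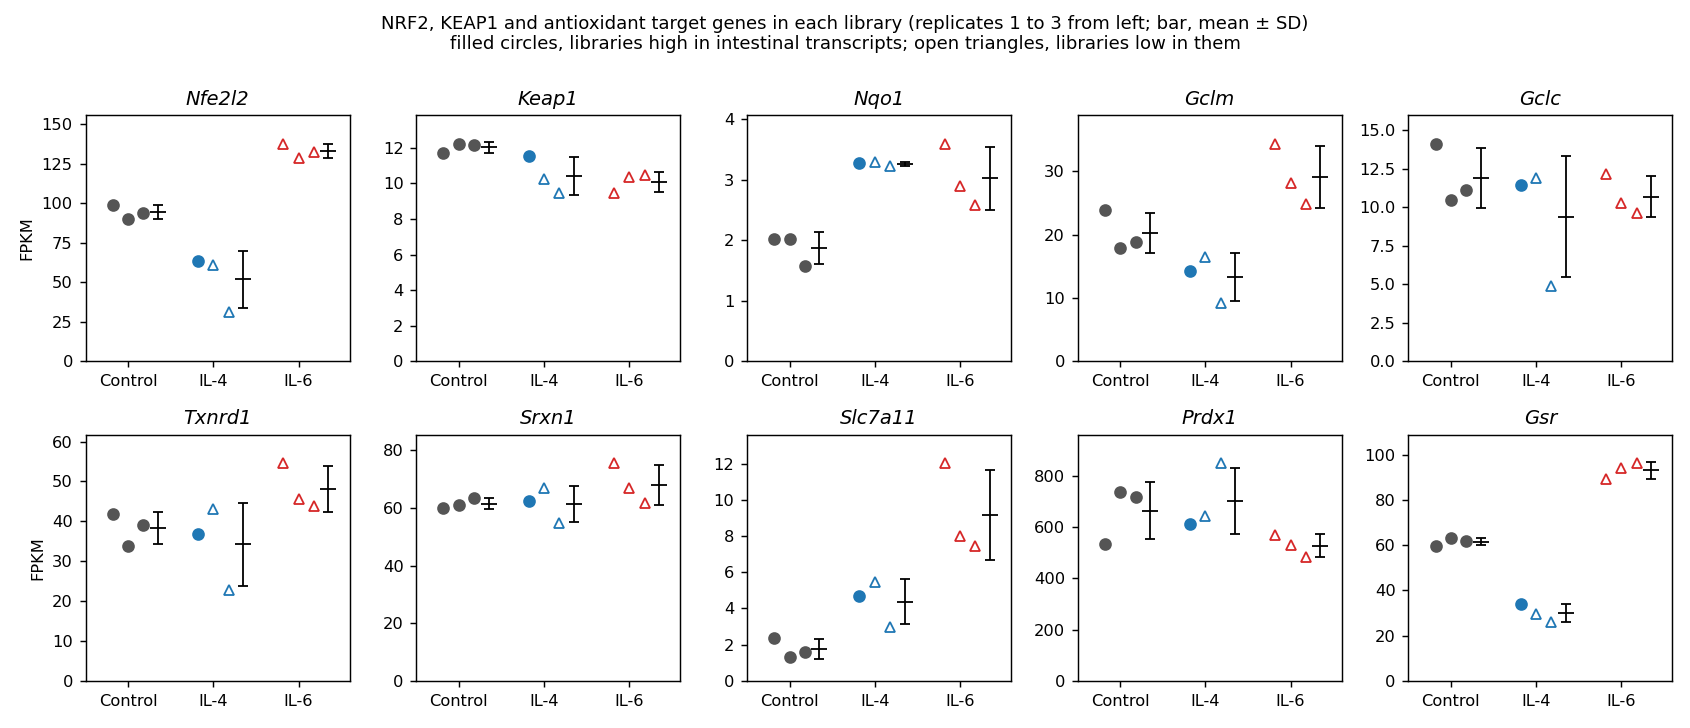
FPKM of each of the 10 genes in the 9 libraries (points, replicates 1 to 3 from left in each group) with the mean ± SD of each group (n = 3), and with marker shape giving the library's set by intestinal transcripts. Gsr and Nfe2l2 fall into 3 separate levels, lowest in IL-4 and highest in IL-6 Mϕs, while Slc7a11 is lowest in control Mϕs.

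Nfe2l2 itself was at its lowest with IL-4 and at its highest with IL-6. The gene (ENSMUSG00000015839.6) lies on the minus strand at chr2:75675513-75704641. It was at 98.9, 89.8 and 93.9 FPKM in the control libraries, 63.3, 60.8 and 31.1 FPKM in the IL-4 libraries, and 138, 128 and 132 FPKM in the IL-6 libraries. No library of one group reached the range of another, and the lowest IL-4 value was that of IL-4 #3. IL-6 against IL-4, the log2 fold change was 1.43 ± 0.25 (SE; limma adjusted p = 0.00328), it was called in all 9 fits that left out a library, and it was 1.61 with the set as a term (adjusted p = 0.00313). IL-4 against control, it was −0.93 ± 0.25 (adjusted p = 0.0277), under the size needed for a call (it reached that size without IL-4 #1 or without IL-4 #2). Its adjusted p was 0.068 to 0.0871 without any 1 of the control libraries, and 0.0505 and 0.0504 without IL-6 #2 or IL-6 #3. The adjusted p was 0.091 in a limma fit of only the 2 groups and 0.0548 without the filter on low values. The log2 fold change was −0.57 with the set as a term (adjusted p = 0.349). IL-6 against control, the value of 0.50 did not pass the test in the fit of all 9 libraries (adjusted p = 0.313). It passed on p, though not on size, without IL-4 #3 (adjusted p = 0.00219) and in a limma fit of only the 2 groups (adjusted p = 0.00528). Each IL-6 library was at 1.39 to 1.43 times the level of the control library with its number. The median summed levels of Mϕ markers and of granulocyte markers were also lowest in IL-4 and highest in IL-6 Mϕs. The ranges were separate for the Mϕ markers, while the granulocyte ranges of control and IL-6 Mϕs overlapped. The part of either marker list in this order, here and for Gclm and Gsr, was not tested.

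Keap1, the adaptor that delivers NRF2 to the CUL3 ubiquitin ligase, differed little. Its gene (ENSMUSG00000003308.15, chr9:21229730-21239361, minus strand) was at 11.7, 12.2 and 12.1 FPKM in control, 11.6, 10.2 and 9.46 FPKM in IL-4, and 9.44, 10.3 and 10.5 FPKM in IL-6 Mϕs. Both cytokine groups lay below the control range, by a narrow margin with IL-4 #1. The log2 fold changes of −0.21 with IL-4 and −0.25 with IL-6 did not pass the test (limma adjusted p = 0.233 and 0.264). About 10.9% of the exon length overlaps the antisense gene Gm16754, whose mean level was 0.614 FPKM.

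Slc7a11, the light chain of the cystine importer xCT, rose with both cytokines, and more with IL-6. The gene (ENSMUSG00000027737.10) spans chr3:49892526-50443614 on the minus strand, and its promoter is the one printed above. Its level was 2.39, 1.32 and 1.62 FPKM in control, 4.69, 5.45 and 2.99 FPKM in IL-4, and 12.0, 8.0 and 7.45 FPKM in IL-6 libraries, from 552 to 5836 fragments per library. The 3 groups did not overlap, and control Mϕs were the lowest. Relative to control, the rise was 2.31 ± 0.30 on the log2 scale with IL-6 (limma adjusted p = 0.00316), called in all 9 fits that left out a library. The IL-4 rise was smaller, at 1.25 ± 0.30 (adjusted p = 0.0185), and was called in 6 of the 9 fits, not without Control #2, Control #3 or IL-4 #2 (1.07, 1.21 and 1.08; adjusted p = 0.0679, 0.0664 and 0.0618).

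Both rises in Slc7a11 were also fitted with the set as a term. The estimates were then 2.52 and 1.39, no smaller than without it, but neither passed the test (limma adjusted p = 0.0944 for IL-6 and 0.1002 for IL-4). Within the high set, IL-4 #1 was at 2.64 times the control mean. Within the low set, the IL-6 mean was 2.17 times the mean of IL-4 #2 and #3. The direct difference between the cytokines, 1.06 (adjusted p = 0.0287), was called in 6 of the 9 fits (0.81, 0.85 and 1.14 without IL-4 #3, IL-6 #1 or IL-6 #2) and came to 0.40 (adjusted p = 0.121) once each library's trend with transcript length was removed, the gene having 13922 bases of exon. Median-ratio rescaling left this difference at 0.83, under the size needed for a call. Slc3a2, the heavy chain that carries xCT to the membrane, was named after its values were seen. It was at 120 to 145 FPKM in control, 97.2 to 178 in IL-4 and 101 to 104 in IL-6 Mϕs, and it did not pass the test against control in either group (adjusted p = 0.966 and 0.357).

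**Figure D3:**
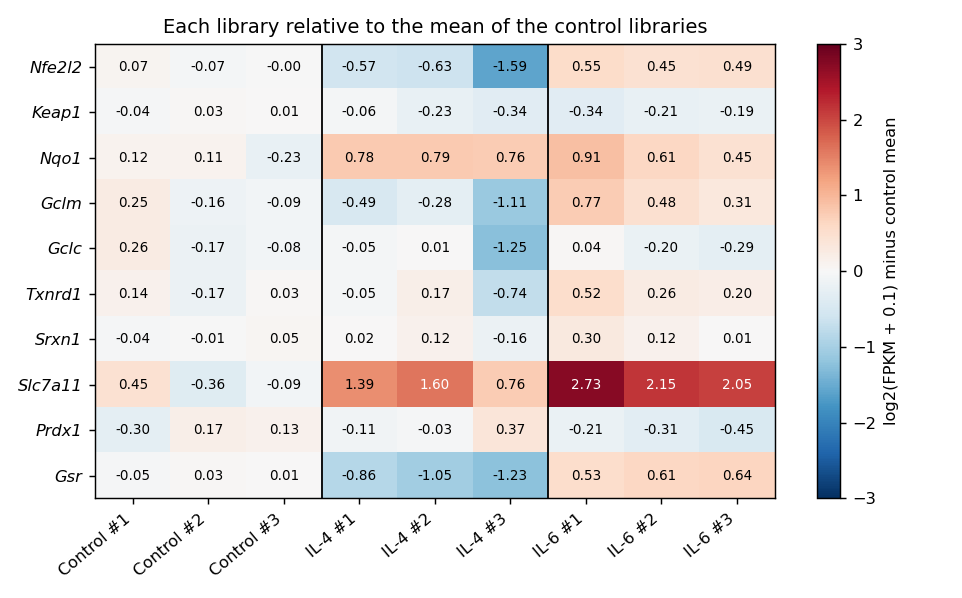
Log2(FPKM + 0.1) of each gene in each library minus the mean of the 3 control libraries, printed in the cells and coloured from blue (lower) to red (higher). Slc7a11 is at 2.05 to 2.73 in the IL-6 libraries and Gsr at −1.23 to −0.86 in the IL-4 libraries. IL-4 #3 carries the lowest value of its group for every gene other than Prdx1, for which it carries the highest.

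The subunits of glutamate-cysteine ligase, the rate-limiting enzyme of glutathione synthesis, behaved differently from each other. Gclm, the modifier subunit (ENSMUSG00000028124.15, chr3:122245557-122270732, plus strand), was at 23.8, 17.9 and 18.9 FPKM in control, 14.3, 16.5 and 9.21 FPKM in IL-4, and 34.3, 28.1 and 24.8 FPKM in IL-6 libraries. All 3 IL-4 libraries lay below control and all 3 IL-6 libraries above it. Between the cytokines Gclm was higher with IL-6 by 1.15 ± 0.23 on the log2 scale (limma adjusted p = 0.00675), a call kept in 8 of 9 fits that left out a library (0.91 without IL-4 #3) and also once the set entered the fit (1.22, adjusted p = 0.0127). It came to 0.79 with the length trend removed and to 0.92 after median-ratio rescaling, both under the size needed for a call. The difference of IL-4 from control, −0.63, and that of IL-6, 0.52, did not pass the test (adjusted p = 0.0873 and 0.252, the latter 0.0416 without IL-4 #3).

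Gclc, the catalytic subunit (ENSMUSG00000032350.9, chr9:77754535-77794485, plus strand), was at 14.1, 10.4 and 11.1 FPKM in control, 11.4, 11.9 and 4.89 FPKM in IL-4, and 12.2, 10.3 and 9.61 FPKM in IL-6 libraries. The groups overlapped, and no comparison passed the test (limma adjusted p = 0.372, 0.834 and 0.505). The ratio of Gclm to Gclc within a library, chosen after the values were seen, was 1.69, 1.71 and 1.70 in control, 1.25, 1.39 and 1.88 in IL-4, and 2.82, 2.74 and 2.58 in IL-6 Mϕs. Its mean was 1.70 ± 0.01 (SD, n = 3) in control and 2.71 ± 0.12 (SD, n = 3) in IL-6 Mϕs, without overlap (exact permutation p = 0.1, two-sided, the smallest that 3 against 3 allows). The IL-4 ratios lay on both sides of control (exact permutation p = 0.4). About 4.58% of the 50-base stretches of Gclm also occur in other genes, and 0 of those of Gclc.

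Gsr, glutathione reductase, which returns oxidised glutathione to its working form with NADPH, gave the largest difference between the cytokines among the 10 genes. Its gene (ENSMUSG00000031584.16) lies at chr8:33652523-33698163 on the plus strand. It was at 59.7, 63.1 and 62.0 FPKM in control, 34.0, 29.7 and 26.2 FPKM in IL-4, and 89.0, 94.2 and 96.2 FPKM in IL-6 libraries. The 3 groups were far apart relative to the spread within each. Gsr fell by 1.05 ± 0.12 on the log2 scale with IL-4 (limma adjusted p = 0.000426; −0.95 without IL-4 #3, under the size needed for a call), and IL-6 Mϕs were 1.64 ± 0.12 above IL-4 Mϕs (adjusted p = 2.64e-05). With IL-6 the difference from control was 0.60 (adjusted p = 0.0182), under the size needed for a call, and its adjusted p was 0.0583 to 0.0914 without any 1 of the control or IL-6 libraries.

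Within the sets the Gsr differences kept their direction where they could be compared, but control and IL-6 Mϕs shared no set. IL-4 #1 was at 0.551 times the control mean in the high set, and the IL-6 mean was 3.33 times that of IL-4 #2 and #3 in the low set. When the set entered the fit, Gsr stood at −0.86 under IL-4 (limma adjusted p = 0.0093), now under the size needed for a call, and 1.74 between the cytokines (adjusted p = 5.34e-05). Median-ratio rescaling also left the IL-4 value under that size, at −0.84 (adjusted p = 0.000847). The difference between IL-6 and control no longer passed with the set as a term (0.88, adjusted p = 0.071).

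In the thioredoxin and peroxiredoxin arm none of the 3 genes was called by limma in any comparison, nor by voom on recovered fragments, and the unadjusted p was under 0.05 for 0, 0 and 1 of them. Of all tested genes, limma called 13.9% in IL-4 against control, 5.38% in IL-6 against control and 20.4% between the cytokines. Txnrd1, the cytosolic thioredoxin reductase (ENSMUSG00000020250.10, chr10:82833951-82897712, plus strand), was at 41.9, 33.9 and 39.0 FPKM in control, 36.9, 43.1 and 22.7 FPKM in IL-4, and 54.6, 45.6 and 43.9 FPKM in IL-6 Mϕs. The IL-6 libraries lay above both other groups, but by 0.32 and 0.53 on the log2 scale without passing the test (limma adjusted p = 0.498 and 0.106, the latter 0.0485 without IL-4 #2). Srxn1, sulfiredoxin, which repairs overoxidised peroxiredoxins (ENSMUSG00000032802.8, chr2:152105516-152111376, plus strand), was at 59.9, 60.9 and 63.6 FPKM in control, 62.5, 67.0 and 54.8 FPKM in IL-4, and 75.6, 67.0 and 61.9 FPKM in IL-6 Mϕs. Its groups overlapped in every comparison, with log2 fold changes between −0.01 and 0.15. Prdx1, a cytosolic peroxiredoxin that removes hydrogen peroxide (ENSMUSG00000028691.12, chr4:116685544-116700822, plus strand), was at 536, 738 and 719 FPKM in control, 611, 645 and 850 FPKM in IL-4, and 570, 532 and 482 FPKM in IL-6 Mϕs. Only the cytokine groups were separate, with IL-6 the lower (−0.40, adjusted p = 0.120). About 8.81% of the 50-base stretches of Prdx1 also occur in other genes, chiefly Gm21399 and Gm7204, so part of its reads is uncertain.

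Nqo1, the quinone reductase most often used as a readout of NRF2 activity, was low throughout. The gene (ENSMUSG00000003849.8) lies at chr8:107388225-107403206 on the minus strand. Its level was 2.03, 2.02 and 1.58 FPKM in control, 3.28, 3.29 and 3.23 FPKM in IL-4, and 3.60, 2.90 and 2.58 FPKM in IL-6 libraries, from 86 to 200 fragments. Both cytokine groups lay above control and overlapped each other. IL-4 against control, Nqo1 gave a log2 fold change of 0.78 ± 0.17 (limma adjusted p = 0.0118). For IL-6 it was 0.66 ± 0.17 (adjusted p = 0.0516), so the IL-4 value passed on p but not on size. The adjusted p was 0.0536 for IL-4 without Control #3 and 0.0194 for IL-6 without IL-4 #3. Neither passed with the set as a term (adjusted p = 0.0992 and 0.283). Nqo1 and Slc7a11 thus stood above control with IL-4 while Nfe2l2, Gclm and Gsr stood below it.

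**Figure D4:**
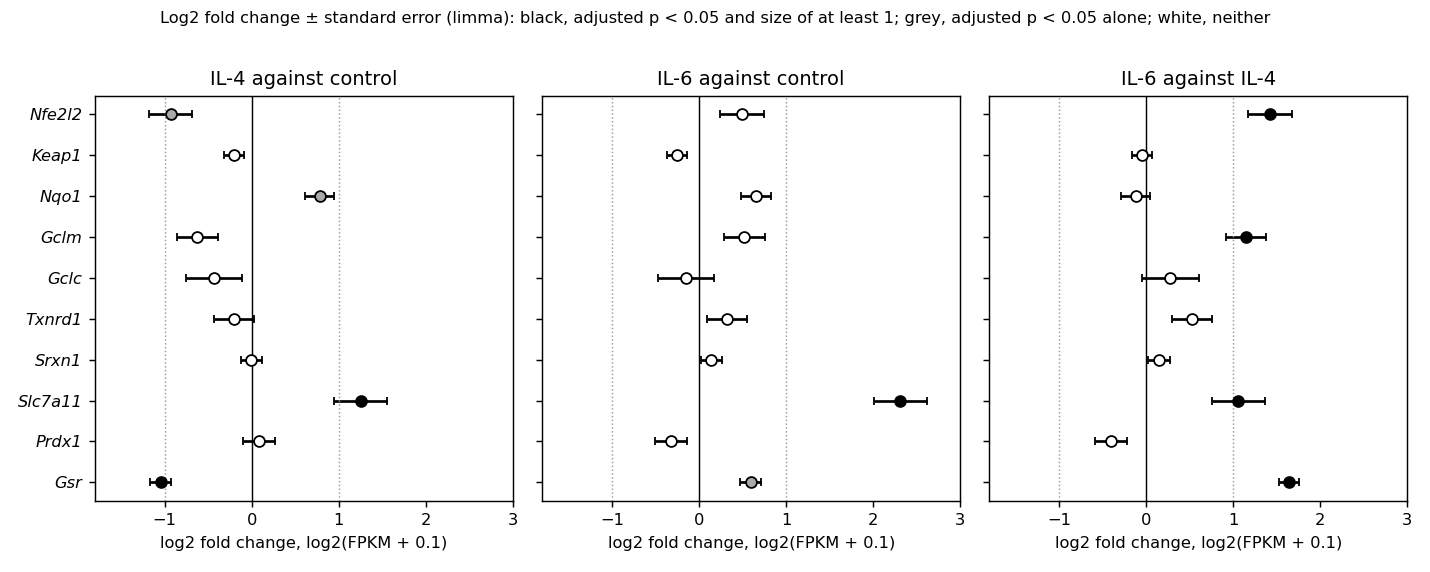
Log2 fold change ± SE of each gene in the 3 comparisons, from limma on log2(FPKM + 0.1); black points were called, grey points passed on adjusted p alone, white points passed neither, and dotted lines mark a size of 1. The IL-6 against IL-4 panel holds 4 black points, all to the right, and each panel against control shows Slc7a11 as the point farthest to the right.

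On the FPKM scale, which is per length, control Mϕs held far more Prdx1 than any other of the 10 genes, at a mean of 664 ± 112 (SD, n = 3). Nfe2l2 followed at 94.2 ± 4.5, then Gsr at 61.6 ± 1.7 and Srxn1 at 61.5 ± 1.9, a pair whose ranges overlapped. Txnrd1 was at 38.3 ± 4.1 and Gclm at 20.2 ± 3.2. Keap1 at 12.0 ± 0.3 and Gclc at 11.9 ± 2.0 overlapped, as did Nqo1 at 1.88 ± 0.26 and Slc7a11 at 1.78 ± 0.55. In IL-6 Mϕs the means ran Prdx1 528, Nfe2l2 133, Gsr 93.1, Srxn1 68.1, Txnrd1 48.0, Gclm 29.1, Gclc 10.7, Keap1 10.1, Slc7a11 9.16 and Nqo1 3.03 FPKM. Slc7a11, which overlapped Nqo1 in control Mϕs, lay wholly above it in IL-6 Mϕs and nearer to Keap1 and Gclc.

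Across the 9 libraries, which share treatments and sets, log2 levels of Nfe2l2 tracked those of Gclm (Pearson r = 0.959) and Gsr (r = 0.943), and less those of Slc7a11 (r = 0.350). Nqo1 did not track Nfe2l2 (r = −0.246) and ran with Slc7a11 (r = 0.772). The tested genes outside the 10 with a profile most like that of Nfe2l2 were Cmklr1 (r = 0.998), Pacsin2 (r = 0.997), Zfp263 (r = 0.995), Plcb3 (r = 0.994) and Nab1 (r = 0.994). Cmklr1, the chemerin receptor, averaged 26.9 FPKM in control, 8.21 FPKM in IL-4 and 54.4 FPKM in IL-6 Mϕs. The profile of Gclm was closest to those of Gpr65 (r = 0.993), Zbtb2 (r = 0.989), Klhdc10 (r = 0.989), Slc38a6 (r = 0.988) and Gm15922 (r = 0.987). These values describe 9 libraries in 3 treatments and carry no test.

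Beyond the 10 genes, lists of the wider pathway held 83 genes, of which 74 could be tested. With IL-4, 16 of the 74 (21.6%) were called, 7 higher and 9 lower, beside 13.9% of all tested genes. With IL-6, 9 (12.2%) were called, 4 higher and 5 lower, beside 5.38%. Between the cytokines, 24 (32.4%) were called, 11 higher with IL-6 and 13 lower, beside 20.4%. The median log2 fold change of the 74 was −0.02, −0.14 and −0.12 in these comparisons, and that of all tested genes −0.20, −0.00 and 0.22.

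Among the partners, competitors and degradation factors of NRF2, 1 of 13 genes (7.69%) was called against control with each cytokine, where 13.9% of all tested genes were called with IL-4 and 5.38% with IL-6. Maff, a small Maf protein with which NRF2 pairs on DNA, rose by 1.05 with IL-4 (limma adjusted p = 0.00468) and by 1.42 with IL-6 (adjusted p = 0.00312). It was at 1.12 to 1.72 FPKM in control, 2.50 to 3.33 in IL-4 and 3.69 to 4.02 in IL-6 Mϕs, in 3 separate ranges. The IL-4 rise came under the size of a call without Control #3 (0.92) or IL-4 #2 (0.96). Neither rise passed once the set entered the fit (adjusted p = 0.0867 and 0.165). Between the cytokines 1 of the 13 (7.69%) was called, higher with IL-6, beside 20.4% of all tested genes called and 13.6% higher. It was Nfe2, the relative of NRF2 known from blood cell development, at 4.67 to 6.88 FPKM with IL-4 and 10.3 to 15.2 with IL-6 (1.19, limma adjusted p = 0.00451). Median-ratio rescaling left Nfe2 at 0.96, under the size needed for a call. Bach1, the repressor that competes with NRF2 and was picked after its values were seen, spread from 16.0 to 30.4 FPKM in control, 5.09 to 21.3 in IL-4 and 31.2 to 36.4 in IL-6 Mϕs and was not called.

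Glutathione genes outside the 10 moved in both directions. With IL-4, 3 of 21 were called higher and 4 lower (33.3%, beside 13.9% of all tested genes), and with IL-6, 1 higher and 3 lower (19.0%, beside 5.38%). Between the cytokines 5 were called higher with IL-6 and 4 lower (42.9%, beside 20.4% of all tested genes). Gpx3, the secreted glutathione peroxidase, fell by 4.91 with IL-4 and fell by 2.36 with IL-6 (limma adjusted p = 1.96e-06 and 0.000182), from 73.6 to 86.6 FPKM in control to 2.16 to 3.31 and 14.3 to 16.3 FPKM. These falls were called in all 9 fits that left out a library and with the set as a term. Chac1, which breaks glutathione down, rose by 2.81 with IL-4 (adjusted p = 0.00158), from 0.631 to 0.731 FPKM in control to 2.61, 8.97 and 6.84 FPKM, and was at 0.855 to 1.09 FPKM with IL-6. Its control values rest on 31 to 42 fragments per library.

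Glutathione transferases of the mu class and the microsomal class were among the genes that fell. Gstm1 fell by 1.64 with IL-4 and fell by 1.48 with IL-6 (limma adjusted p = 0.000259 and 0.00142), from 209 to 265 FPKM in control to 63.8 to 94.9 and 80.2 to 86.8 FPKM. Gstm5 fell by 2.69 with IL-4 (adjusted p = 0.000485), from 2.00 to 4.07 FPKM in control to 0.232 to 0.527 FPKM, and was at 2.68 to 3.01 FPKM with IL-6. Its IL-4 values rest on 9 to 23 fragments per library. Mgst3 fell by 1.52 with IL-6 (adjusted p = 0.0181), a call not made without Control #2, Control #3 or any 1 of the IL-6 libraries (adjusted p of 0.069 to 0.0807) nor with the set as a term (adjusted p = 0.135). The mu-class genes are near copies of one another, so the division of reads among them is uncertain.

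In the thioredoxin and peroxide list, 2 of 15 genes were called lower with IL-4 (13.3%, beside 13.9% of all tested genes called) and 1 higher with IL-6 (6.67%, beside 5.38%). Between the cytokines 3 were called higher with IL-6 and 3 lower (40%, beside 20.4% of all tested genes). Sod2, the mitochondrial superoxide dismutase, was at 21.5 to 23.1 FPKM in control and 20.2 to 23.7 in IL-4 Mϕs, and at 139, 126 and 121 FPKM in IL-6 Mϕs. This rise of 2.51 ± 0.11 was called in all 9 fits that left out a library (limma adjusted p = 1.27e-05), and a term for the set left it at 2.50 (adjusted p = 0.00357). With IL-4, Sesn1, a sestrin, fell by 2.24 (adjusted p = 0.000388) and Cat, the catalase gene, fell by 1.29 (adjusted p = 0.00922). The IL-4 value of Cat was −0.96 without IL-4 #3, and it no longer passed with the set as a term (adjusted p = 0.151). Both genes also lay wholly below control with IL-6, without a call, at −0.99 for Sesn1 (limma adjusted p = 0.0435) and −0.74 for Cat (adjusted p = 0.150). The Sesn1 adjusted p was 0.107 to 0.154 without any 1 of the control or IL-6 libraries. The Cat adjusted p was 0.00289 without IL-4 #3. Neither IL-6 value passed with the set as a term (−0.34 and −0.21, adjusted p = 0.52 and 0.76).

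Txnip, which binds and inhibits thioredoxin, and Prdx4, the peroxiredoxin of the endoplasmic reticulum, stood on opposite sides of control under the cytokines. Txnip was at 106 to 133 FPKM in control, 199 to 251 in IL-4 and 65.5 to 71.9 in IL-6 Mϕs. Prdx4 was at 17.1 to 22.8 FPKM in control, 29.5 to 46.8 in IL-4 and 10.7 to 12.2 in IL-6 Mϕs. Neither reached the size of a call against control, and both were called between the cytokines, by −1.63 and −1.61 (limma adjusted p = 6.11e-05 and 0.000462).

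Of the 7 heme and iron genes, 2 were called lower by limma with IL-4 (28.6%, beside 13.9% of all tested genes called and 8.89% lower). With IL-6 limma called 0 (5.38% of all genes), 2 had an unadjusted p under 0.05 and voom on recovered fragments called 1 of 6. Between the cytokines limma called 1, higher with IL-6 (14.3%, beside 20.4% of all tested genes). Slc40a1, the iron exporter ferroportin, fell by 3.87 with IL-4 (adjusted p = 0.000398), from 117 to 159 FPKM in control to 17.5, 9.51 and 4.33 FPKM. It was at 44.3 to 44.8 FPKM with IL-6, below control (−1.58, adjusted p = 0.0598, not a call). That difference was a call with median-ratio rescaling (adjusted p = 0.0256), the length trend removed (−1.77, adjusted p = 0.00171), voom (adjusted p = 0.0445) or only the 2 groups in the fit (adjusted p = 0.00042). It was one too without IL-4 #1 or IL-4 #3 (adjusted p = 0.0131 and 0.00171), and it came to −0.15 with the set as a term (adjusted p = 0.844). Fth1, the ferritin heavy chain, was called lower with IL-4 (−1.10, adjusted p = 0.0365), but in only 2 of the 9 fits that left out a library, those without Control #1 and without IL-4 #3. Hmox1, heme oxygenase 1, was picked after its values were seen. It was at 385 to 569 FPKM in control, 362 to 390 in IL-4 and 521 to 570 in IL-6 Mϕs and was not called in any comparison. Between the cytokines it lay wholly higher with IL-6 and passed on p but not on size (0.54, limma adjusted p = 0.0278).

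Among 12 detoxification genes, 3 were called higher and 1 lower with IL-4 (33.3%, beside 13.9% of all tested genes), and 2 lower with IL-6 (16.7%, beside 5.38%). Between the cytokines 7 of the 12 were called, 1 higher with IL-6 and 6 lower (58.3%, beside 20.4% of all tested genes). Ephx1, the microsomal epoxide hydrolase, rose by 1.10 with IL-4 (limma adjusted p = 0.000363) and fell by 1.68 with IL-6 (adjusted p = 0.000176). It was at 19.4 to 20.4 FPKM in control, 38.6 to 49.3 in IL-4 and 5.85 to 6.47 in IL-6 Mϕs, and both calls held with the set as a term (the rise was 0.998 without IL-4 #1). Osgin1, a known NRF2 target, fell by 1.14 with IL-4 (adjusted p = 0.00033), from 14.5 to 15.9 FPKM to 6.36 to 7.02 FPKM. Median-ratio rescaling left it at −0.94, under the size needed for a call. Esd, an esterase that takes part in formaldehyde removal, rose by 1.36 with IL-4 (adjusted p = 0.0124), called in 7 of the 9 fits that left out a library (not without Control #1 or IL-4 #3), and it did not pass with the set as a term (adjusted p = 0.201).

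Akr1b8, an aldo-keto reductase, fell by 1.15 with IL-6 (limma adjusted p = 0.0152), a call not made without Control #2, Control #3 or any 1 of the IL-6 libraries (adjusted p of 0.0568 to 0.0751) nor with the set as a term (adjusted p = 0.124). Of the 6 genes that supply NADPH, 1 was called, with IL-6 against control (16.7%, beside 5.38% of all tested genes). Me1, malic enzyme, rose with IL-6 by 1.09 (adjusted p = 0.0314), from 0.277 to 0.326 FPKM in control to 0.601 to 0.872 FPKM, in 32 to 117 fragments per library over all 9 libraries. It did not pass with the library number as a replicate block (adjusted p = 0.0594) or with the set as a term (adjusted p = 0.195) and was called in 2 of the 9 fits that left out a library, those without IL-4 #1 and without IL-4 #3.

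**Figure D5:**
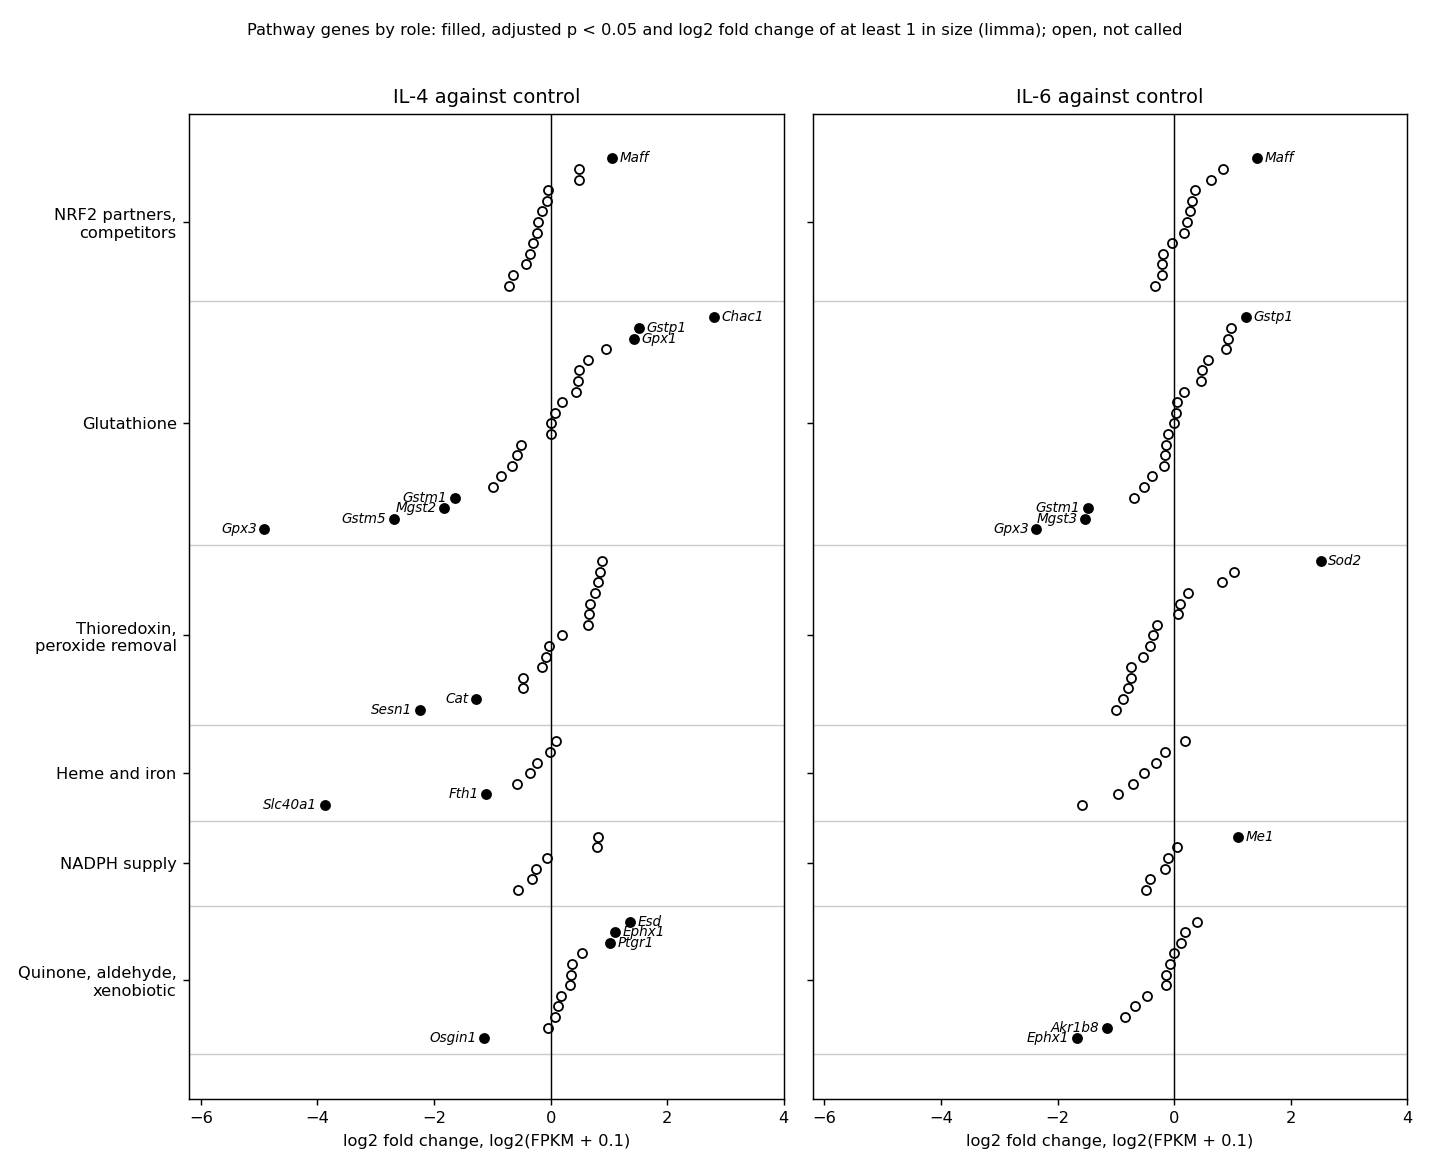
Log2 fold change against control of the 74 tested pathway genes in 6 lists by role, ordered within each list, for IL-4 (left) and IL-6 (right); filled points with names were called by limma. Filled points lie on both sides of 0 in both panels, with Gpx3 at −4.91 the lowest in the IL-4 panel and Sod2 at 2.51 the highest in the IL-6 panel.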

How the data were processed

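Mouse BM-derived Mϕs had been analysed by stranded mRNA sequencing. The authors deposited 1 table of FPKM values per gene and library. Per the labels, reads were handled with STAR 2.4.2a and Cufflinks 2.2.1 on GRCm38. Lengths and coordinates came from GENCODE M21, in which 94.8% of the identifiers matched with their version (Maff, Fth1 and Sod2 did not and have no length or fragment count here). The FPKM values times length gave whole fragments, within 0.05, for 100% of 100881 values under 100 fragments. Values after ± are the SE of limma or the SD over the libraries of a group.

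Values were tested as log2(FPKM + 0.1), a scale that understates changes of low genes, with limma 3.58.1 (R 4.3.3; trend and robust options) in 1 fit of all 9 libraries. Genes needed a mean FPKM of at least 0.5, and p-values were adjusted (Benjamini-Hochberg) over 12824 genes. The test was checked on simulated data. The 10 genes and the lists were chosen with earlier results of these data known. From each pathway list, up to 3 called genes with the largest log2 fold change per comparison were named. Lyz1 was left out of the intestinal list after its values were seen, since it shares reads with Lyz2. The columns carry the same 3 numbers in each group and the design names 3 mice, so a number was taken to mark a mouse, which no source states outright. Correlations of same-numbered deviations ran from −0.41 to 0.52. Alternatives covered the pseudocount, filter, scaling, samples in the fit, replicate block, variance options, threshold, set term, left-out libraries, length trend and voom.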

Additional observations from a re-analysis of the deposited data

How the results depend on the processing

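Of the 10 genes, 2 were called in IL-4 against control. The number was 1 with a pseudocount of 1, with median-ratio rescaling, with only the 2 groups compared and with the length trend removed, 4 with adjusted p alone, 0 with a term for the library set, and 1 to 3 when a library was left out (1 without Control #2, Control #3 or IL-4 #3). In IL-6 against control the number was 1, or 2 with adjusted p alone and 0 with the set term. Between the cytokines it was 4, or 2 with median-ratio rescaling and with the length trend removed, and 2 to 4 when a library was left out (2 without IL-4 #3). The number of pathway genes called with IL-4 was 16, or 30 with adjusted p alone. With IL-6 it was 9, or 18 with adjusted p alone, 5 with the set term and 5 to 11 when a library was left out (5 without Control #3 or without any 1 of the IL-6 libraries). The sign of the log2 fold change turned for 12 of the 87 comparisons of a named gene in at least 1 setting, none of them called as reported or where the sign turned. With the set term Chac1 in IL-6 against control (0.47) was −1.08, Gclc (−0.15) 0.42 and Gstm5 (−0.0076) 0.68, in IL-4 against control Akr1b8 (0.13) was −0.11, Prdx1 (0.080) −0.11 and Srxn1 (−0.0059) 0.023, and in IL-6 against IL-4 Keap1 (−0.042) was 0.034. With median-ratio rescaling Srxn1 was 0.20 with IL-4 and −0.081 between the cytokines (0.15), Gstm1 between the cytokines (0.16) −0.067 and Sod2 with IL-4 (−0.033) 0.17. With the length trend removed Txnrd1 with IL-4 was 0.058, Srxn1 with IL-4 0.047 and Gstm5 with IL-6 0.043, and with voom the last 2 were 0.0067 and 0.019. When a library was left out the values ran, with IL-4, from −0.12 to 0.26 for Akr1b8, −0.068 to 0.17 for Prdx1, −0.071 to 0.074 for Srxn1, −0.40 to 0.063 for Txnrd1 (−0.21 with all libraries) and −0.092 to 0.023 for Sod2, with IL-6 from −0.25 to 0.24 for Gstm5, and between the cytokines from −0.13 to 0.50 for Gclc (0.28 with all libraries) and −0.11 to 0.034 for Keap1. Among these fits Txnrd1 and Gclc turned only in the one without IL-4 #3. The causes were not tested. The replicate block gave 2, 1 and 4 called genes of the 10 and changed no call of a named gene other than that of Me1. Removing the length trend and running limma voom on recovered fragments were chosen after seeing the data. Low levels limit Nqo1 (86 to 200 fragments per library), Me1 (32 to 117), Chac1 (31 to 447) and Gstm5 (9 to 156).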
